A study of Macaca fuscata with 12 samples.

Results

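The genes described here are 6 transcription factors of the immediate early response to neuronal activity: FOS, FOSL2, JUNB, JUND, NR4A1 and KLF4. They were taken as every probe set of the array to which the platform's gene table gives a single symbol from these names, and they are 6 of 14132 genes with a single symbol. They are read by 9 probe sets: 1 each for FOS, JUNB and JUND, and 2 each for FOSL2, NR4A1 and KLF4. Brain RNA of 8 Japanese macaques (Macaca fuscata) was hybridised to 12 Affymetrix rhesus macaque arrays. The study compared animals given tool-use training with control animals in 2 parts of the left hemisphere, tissue bordering the lateral sulcus, with the secondary somatosensory cortex (SII), and tissue bordering the intraparietal sulcus (IPS). Each of the 4 groups, control and trained in either region, has 3 arrays.

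The SII controls were aged 4 years 6 months (female), 5 years 4 months (male) and 5 years 10 months (male). The SII trained animals were aged 5 years 7 months (male), 3 years 10 months (female) and 5 years 1 month (male). The IPS controls, all male, were aged 5 years 4 months, 5 years 10 months and 3 years 9 months, and the IPS trained animals, all male, 5 years 7 months, 6 years and 5 years 1 month. Of the 8 animals, 4 gave tissue of both regions: 347M and 354M among the controls and 334M and 348M among the trained animals. The labels name no allele, no further agent and no time between the last training session and the removal of tissue. They do not say what the control animals did.

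Immediate early genes are transcribed within minutes of a stimulus without new protein synthesis. In neurons, calcium entry activates kinases that act on factors already bound at their promoters, such as CREB and SRF with its ELK partners. FOS and FOSL2 belong to the Fos family, whose proteins bind DNA as heterodimers with Jun proteins such as JUNB and JUND; the dimers form the AP-1 factor. FOS RNA is short-lived and is widely used to mark recently active neurons, FOSL2 responds more slowly, and JUND is expressed in unstimulated cells as well. NR4A1 is an orphan nuclear receptor, and KLF4 is a zinc finger factor that is also strongly expressed in endothelial cells. The tissue was bulk cortex, where fewer cells of a type and less RNA per cell cannot be told apart.

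All values below are log values of a probe set minus its own median over the 12 arrays, as deposited, with the base taken as 2. Thus 0 is the middle of the 12 arrays and a level cannot be compared between genes. Where a gene has 2 probe sets, its value is their mean. Changes are given as trained minus control, or IPS minus SII, with the standard error (SE) of a model fitted in limma over all genes, with 3 arrays per group. It allows for arrays of the same animal, so a fitted change can differ a little from the difference of group means. An adjusted p under 0.05 over all genes counts as passing. Since a probe set's own level was removed, neither the presence of these transcripts nor that of cortical marker genes can be checked against the tissue label.

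Array quality differed within and between groups. The mean of 27 hybridisation control probe sets lay between 0.44 and 0.54 on 3 arrays (SII control 1, SII trained 2 and IPS trained 3) and between -0.13 and 0.08 on the others. The GAPDH 3' minus 5' difference, which rises as RNA is degraded, ran from -0.57 to 1.01 and was highest on IPS trained 3 and SII trained 1. All SII controls (-0.57 to -0.22) lay below all IPS controls (-0.03 to 0.33), and SII trained animals were at -0.24 to 0.72. The same difference for actin ran from -1.87 on SII control 2 to 1.37 on IPS trained 3. A shared lowest value, here called the floor, was found in 18.8% of all probe sets, and its height differed by up to 1.67 between arrays. Both female animals are in SII and none in IPS.

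None of the 6 genes passed the test for a training change in either region. In SII the fitted change was below 0 in 6 of 6 genes, where 45.5% of all 14132 genes were below 0, and the median over the 6 was -0.27 against 0.03 over all genes. In IPS it was below 0 in 5 of 6, against 45.4% of all genes, with a median of -0.47 against 0.03. The 6 changes are not separate observations, since the genes share the same 12 arrays and vary together. The genes were also chosen with earlier results of these data known, so these counts are no test of a shared direction. Of the 6, 0 had an unadjusted p under 0.05 in either region, against 3.49% of all genes in SII and 2.87% in IPS. Adjusted over all genes in limma, 0 of 14132 genes passed in SII, in IPS or on average over both regions, and all 12 adjusted p-values of the 6 genes were 1. The 95% interval of the SII change was narrowest for FOSL2, at -0.67 to 0.34, and widest for KLF4, at -2.21 to 0.43, so changes of either sign inside these limits could not be told from 0.

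**Figure D1:**
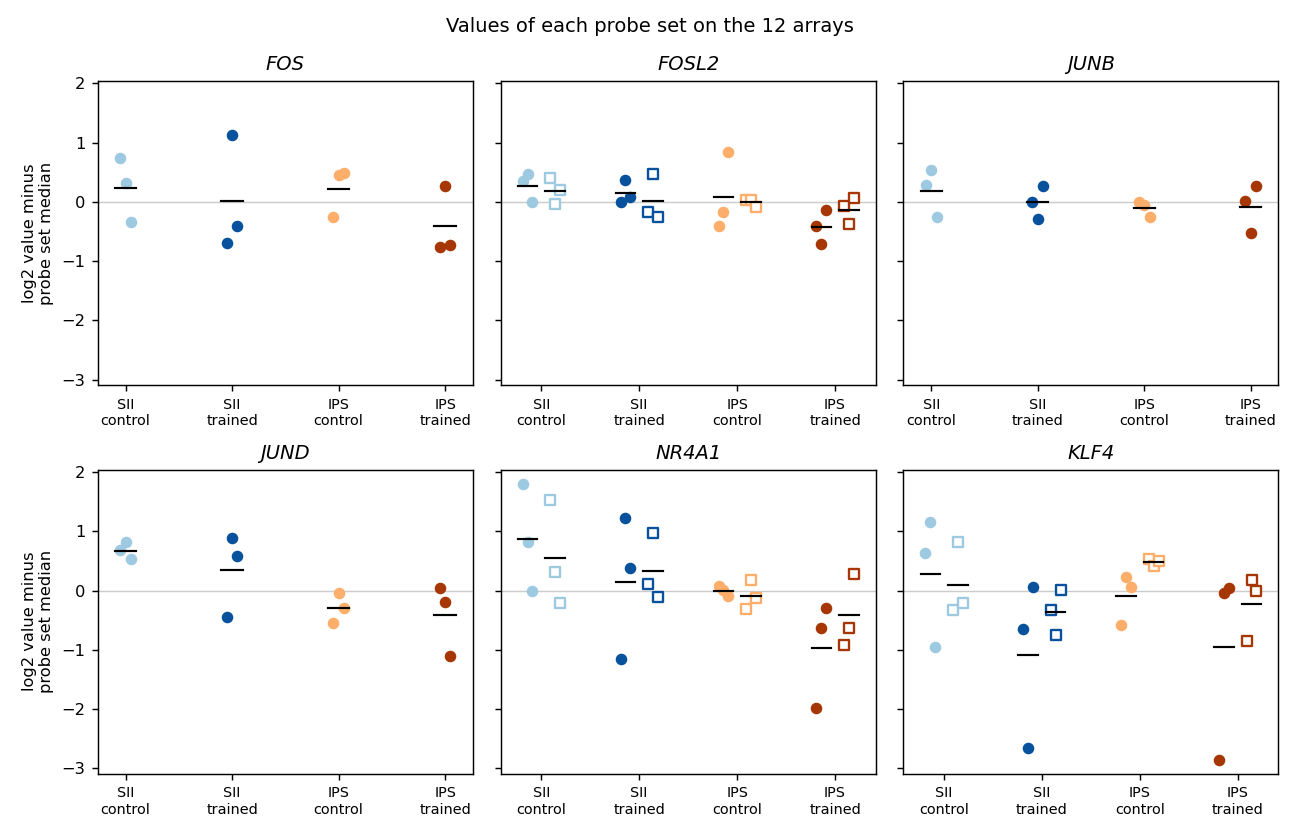
Log2 values minus the probe set's median (vertical axis) on each of the 12 arrays, by group of 3 arrays (horizontal axis), for the 6 genes; each point is 1 array and each short bar the mean of 3. Filled circles are the first or only probe set and open squares the second (FOSL2 MmuSTS.2660.1.S1_at, NR4A1 MmugDNA.18685.1.S1_s_at, KLF4 MmuSTS.1430.1.S1_at). JUND points of IPS lie below most of those of SII, and 2 trained arrays lie near -2.7 and -2.9 in 1 KLF4 probe set.

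FOS, the Fos family member most used as a marker of recent activity, was read by probe set MmugDNA.38565.1.S1_at. Its values were 0.75, 0.32 and -0.35 in the SII controls and -0.69, 1.12 and -0.41 in SII trained animals. In IPS they were -0.26, 0.45 and 0.49 in controls and -0.76, 0.26 and -0.73 in trained animals. In both regions the groups overlapped. The highest of all 12 values was SII trained 2, one of the female animals, and the lowest were SII trained 1 and IPS trained 1, which are the same animal (334M), and IPS trained 3. The fitted change was -0.22 ± 0.49 in SII (limma, unadjusted p = 0.666, 95% interval -1.31 to 0.87) and -0.62 ± 0.49 in IPS (unadjusted p = 0.237, interval -1.71 to 0.47).

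The direction of FOS in SII rested on single animals. It was 0.12 without SII trained 1, 0.030 without SII control 1 and -0.77 without SII trained 2. FOS in IPS kept its sign in all 23 alternative settings, with changes from -0.95 to -0.43.

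FOSL2, the slower Fos family member, had group means of 0.23 ± 0.14 in SII controls, 0.08 ± 0.29 in SII trained animals, 0.04 ± 0.29 in IPS controls and -0.28 ± 0.25 in IPS trained animals (SD, n = 3). The groups overlapped in both regions. Its changes were -0.17 ± 0.23 in SII and -0.31 ± 0.23 in IPS (limma, unadjusted p = 0.482 and 0.197). The sign was the same in all 23 alternatives in each region. The 2 probe sets followed each other loosely, with a Pearson correlation of 0.39 over the 12 arrays. Of these, MmugDNA.30728.1.S1_at lay at the floor in SII trained 2 and IPS trained 2 and at most 1.77 above it elsewhere. Its values on those 2 arrays are upper limits, and it had a change of -0.51 ± 0.33 in IPS. The other, MmuSTS.2660.1.S1_at, with no floor found, had changes of -0.18 ± 0.25 in SII and -0.12 ± 0.25 in IPS. The floor therefore bears on the gene mean in both regions and on its correlations. On SII trained 2 the floor reading was 0.37 and the other probe set read 0.46, and the gene mean of 0.42 was the highest of the 12. The IPS change of the gene mean was -0.12 when floor probe sets were left out.

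JUNB, an AP-1 partner of the Fos proteins that is itself induced by activity, had values of 0.29, 0.53 and -0.25 in SII controls and 0.00, -0.30 and 0.26 in SII trained animals. In IPS the controls were at 0.00, -0.05 and -0.26 and the trained animals at 0.01, -0.53 and 0.27. The control range of IPS lay inside the trained range. Changes were -0.21 ± 0.27 in SII and 0.01 ± 0.27 in IPS (limma, unadjusted p = 0.454 and 0.969). The IPS value had no stable sign, with a range of -0.16 to 0.24 when 1 array was left out at a time. Of the 6 genes, JUNB had the narrowest scatter within groups but for FOSL2, with an SD of 0.33 within groups against a median of 0.40 over all genes.

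JUND, the Jun protein that is also made at rest, had values of 0.68, 0.81 and 0.53 in SII controls and -0.44, 0.88 and 0.58 in SII trained animals. Its values in IPS were -0.55, -0.03 and -0.29 in controls and 0.03, -0.19 and -1.10 in trained animals. The training groups overlapped in both regions, with changes of -0.33 ± 0.38 in SII and -0.11 ± 0.38 in IPS (limma, unadjusted p = 0.408 and 0.773). Within SII, 5 of 6 arrays lay at 0.53 or above, and SII trained 1 was apart from them. The SII change was 0.038 without SII trained 1, and the IPS change was 0.35 without IPS trained 3, the lowest array.

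NR4A1 was read by a pair of probe sets designed on the same sequence, so they are 2 readings of one target. MmugDNA.18685.1.S1_at was at 1.81, 0.82 and 0.00 in SII controls and -1.16, 1.23 and 0.37 in SII trained animals. In IPS it was at 0.07, 0.00 and -0.10 in controls and -1.98, -0.64 and -0.30 in trained animals. Every trained array of IPS thus lay below every IPS control in this probe set, and the SII groups overlapped. The fitted change in IPS was -0.96 ± 0.65 (limma, unadjusted p = 0.169, adjusted p = 1). In the second probe set, MmugDNA.18685.1.S1_s_at, the IPS groups overlapped, with controls at -0.32, 0.18 and -0.12 and trained animals at -0.91, -0.63 and 0.29, and the change was -0.34 ± 0.49. For the mean of the 2 probe sets the changes were -0.47 ± 0.52 in SII and -0.65 ± 0.52 in IPS (unadjusted p = 0.386 and 0.237). Animal 334M was the lowest array of both trained groups in this mean, at -0.52 in SII and -1.45 in IPS. Without its IPS array the IPS change was -0.28, and without its SII array the SII change was -0.077. Without SII control 1 the SII change was 0.0083.

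KLF4 had the widest scatter of the 6, with an SD within groups of 0.81 for the gene mean. Its probe set MmugDNA.26876.1.S1_at was at 0.64, 1.15 and -0.94 in SII controls, -0.65, -2.66 and 0.06 in SII trained animals, -0.58, 0.22 and 0.06 in IPS controls and -2.86, -0.04 and 0.04 in IPS trained animals. A single trained array in each region, SII trained 2 and IPS trained 1, was far below the rest. The second probe set, MmuSTS.1430.1.S1_at, was at -0.32, 0.81 and -0.21, then -0.34, -0.74 and 0.01, in SII controls and trained animals. In IPS it was at 0.53, 0.41 and 0.50 in controls and -0.85, 0.18 and -0.01 in trained animals, so that the IPS groups did not overlap in this probe set.

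The KLF4 change in IPS was -0.70 ± 0.37 in MmuSTS.1430.1.S1_at (limma, unadjusted p = 0.0862, adjusted p = 1) and -0.88 ± 0.91 in MmugDNA.26876.1.S1_at. As a gene mean, KLF4 had changes of -0.89 ± 0.60 in SII and -0.81 ± 0.60 in IPS (unadjusted p = 0.165 and 0.205). These were the largest of the 6 genes in each region and also had the largest SE. Without IPS trained 1 the IPS change was -0.16, and without SII trained 2 the SII change was -0.40.

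Counted over the 9 probe sets, the training groups were fully separate in 2 in IPS, 1 of NR4A1 and 1 of KLF4, both with the trained values lower. Among all 52766 probe sets tested, 9.49% did not overlap in IPS, and 3.72% did so with trained values lower. In SII it was 0 of 9 member probe sets against 7.08% of all. Neither of the 2 was apart as a gene mean, where 0 of 6 genes had groups that did not overlap, against 8.37% of all genes in IPS and 6.55% in SII.

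The change in IPS and the change in SII were compared directly as an interaction. The difference, IPS change minus SII change, was -0.40 ± 0.68 for FOS, -0.15 ± 0.31 for FOSL2, 0.22 ± 0.37 for JUNB, 0.22 ± 0.52 for JUND, -0.18 ± 0.71 for NR4A1 and 0.08 ± 0.82 for KLF4. None of the 6 had an unadjusted p under 0.05, against 3.28% of all genes, and no gene of 14132 passed. Averaged over both regions the training change was -0.42 ± 0.36 for FOS, -0.24 ± 0.17 for FOSL2, -0.10 ± 0.20 for JUNB, -0.22 ± 0.28 for JUND, -0.56 ± 0.38 for NR4A1 and -0.85 ± 0.43 for KLF4. KLF4 had the smallest p of these (unadjusted 0.0778, adjusted 1 in limma, interval -1.81 to 0.11), and again 0 of 6 were under 0.05, against 3.02% of all genes.

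**Figure D2:**
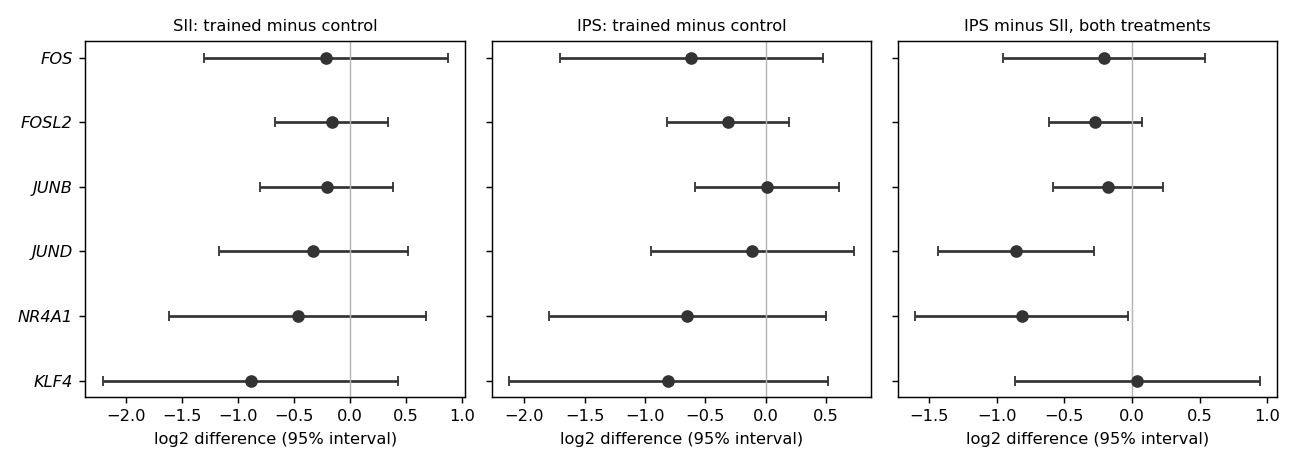
Fitted log2 differences of the 6 gene means with 95% intervals (horizontal axis) from the limma fit over 12 arrays: trained minus control in SII, the same in IPS, and IPS minus SII averaged over treatment. All 12 training intervals cross 0, and the regional intervals of JUND (-1.44 to -0.28) and NR4A1 (-1.60 to -0.03) do not.

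Values other than treatment were set beside these genes, and some of them correlated with a member over the 12 arrays. The mean of the meningeal and fibroblast markers, of which 8 of 8 were measured, correlated with KLF4 at 0.66 over the 12 arrays. It ran from -0.38 to 0.82 in SII controls, -0.53 to -0.23 in SII trained animals, -0.14 to 0.37 in IPS controls and -0.38 to 0.02 in IPS trained animals. The endothelial and pericyte markers (9 of 11 measured), of cells that also express KLF4, correlated with it at 0.03. The hybridisation controls correlated with NR4A1 at 0.70. Red blood cell markers (5 of 9 measured) lay at 1.79 in SII trained 2, which was the highest array for FOS and the lowest for KLF4 in SII, and between -0.73 and 0.43 elsewhere. These markers correlated with FOS at 0.54 and with KLF4 at -0.53. The training groups of SII did not overlap in the means of 2 other marker lists, picked after all lists were seen. Of all single genes, 6.55% did not overlap in SII, so this is no sign of a training change in these lists. Heat shock and acute stress genes (9 of 12 measured) were at -0.097 to 0.18 in SII controls and -0.22 to -0.20 in SII trained animals. Choroid plexus and ependyma markers (6 of 7 measured) were at -0.42 to -0.040 and -0.035 to 0.78. In IPS the groups of both lists overlapped. Over the 12 arrays the heat shock list correlated with the 6 genes at -0.29 (NR4A1) to 0.18 (JUNB). The choroid plexus list did so at -0.46 (KLF4) to 0.42 (FOSL2). In all, 108 correlations between the 6 genes and 18 measures of the arrays were computed, and those given here were picked after their values were seen, except the endothelial one. The part of these measures in the training values was not tested.

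Between the regions, averaged over treatment, JUND and NR4A1 were the 2 of 6 genes with an unadjusted p under 0.05, where 10.7% of all genes were. Neither passed after adjustment over all genes, where 3 of 14132 genes (0.0212%) passed. Those 3, named after their values were seen, were KIR2DL4, ACOD1 and R3HDML, all lower in IPS. For JUND the regional difference, IPS minus SII, was -0.86 ± 0.26 (limma, unadjusted p = 0.00773, adjusted p = 0.37). NR4A1 had -0.82 ± 0.36 (unadjusted p = 0.0438, adjusted p = 0.459). The other genes had -0.21 ± 0.34 for FOS, -0.27 ± 0.16 for FOSL2, -0.18 ± 0.18 for JUNB and 0.04 ± 0.41 for KLF4. The regional values of FOS and KLF4 had no stable sign across the alternatives.

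JUND in SII had a lowest, median and highest value of -0.44, 0.63 and 0.88 over 6 arrays, and in IPS -1.10, -0.24 and 0.03. Of the 6 SII arrays, 5 lay above all 6 IPS arrays. In the 4 animals with both regions, JUND was at 0.81 in SII and -0.55 in IPS in 347M, 0.53 and -0.03 in 354M, and 0.58 and -1.10 in 348M. Animal 334M went the other way, from -0.44 to 0.03. The mean difference within animals was -0.78 ± 0.96 (SD, n = 4), with 3 of 4 lower in IPS. Under 22 alternatives the regional difference of JUND ran from -1.05 to -0.52, and its adjusted p from 0.218 to 0.625.

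JUND also followed the RNA quality reading. Its correlation with the GAPDH 3' minus 5' difference over the 12 arrays was -0.81, and with the actin 3' minus 5' difference -0.62. The arrays with the highest GAPDH difference, 1.01 in IPS trained 3 and 0.72 in SII trained 1, were the lowest arrays of JUND in their regions. The GAPDH difference ran from -0.57 to -0.22 in SII controls, -0.24 to 0.72 in SII trained animals, -0.03 to 0.33 in IPS controls and -0.28 to 1.01 in IPS trained animals. JUND was correlated at 0.67 with 6 measured markers of excitatory neurons (6 of 9 listed), 0.65 with 3 of oligodendrocytes (3 of 7) and 0.62 with 9 of microglia and macrophages (9 of 9). The excitatory markers ran from -0.06 to 0.28 in SII and -0.37 to 0.21 in IPS. The microglial markers were at -0.15 to 0.28 in SII and -0.65 to 0.10 in IPS. These correlations were the largest in size for JUND among the 18 measures of the arrays and were picked after their values were seen. The part of these measures in the regional values of JUND was not tested. Region may also coincide with a hybridisation batch, because the labels name the arrays of the regions differently and give no date.

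**Figure D3:**
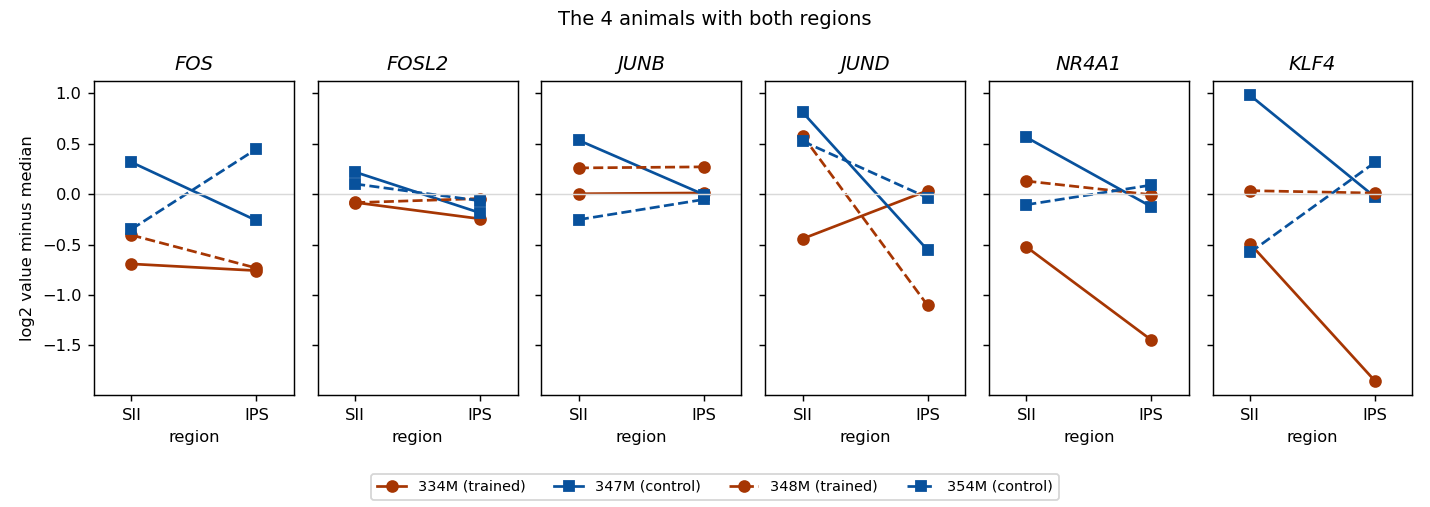
Log2 values minus the median (vertical axis) of the 6 genes in SII and IPS (horizontal axis) for the 4 animals sampled in both; each line is 1 animal, squares are controls and circles trained animals. JUND is lower in IPS in 3 of 4 animals. 334M (solid line with circles) is the lowest of the 4 in both regions for FOS and NR4A1, and in IPS only for KLF4.

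NR4A1 in SII spread from -0.52 to 1.66 with a median of 0.35, and in IPS from -1.45 to 0.09 with a median of -0.12. Of the 6 SII arrays, 4 lay above every IPS array. The 2 highest were SII control 1 at 1.66 and SII trained 2 at 1.10, both of female animals, which are present in SII only and carry raised hybridisation controls. With males only, or with sex in the model, the regional difference of NR4A1 was -0.39 (unadjusted p = 0.211 and 0.181 in limma). Within the 4 animals with both regions it averaged -0.39 ± 0.51 (SD, n = 4), with 3 of 4 lower in IPS. In SII the raised hybridisation controls are on the arrays of females only. The fits by sex thus cannot separate sex from these controls. Region is partly confounded with both, and this holds for all 6 genes.

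The 6 genes were then compared with each other over the 12 arrays. These correlations are descriptions, since the arrays share animals, regions and hybridisation conditions. The shares of all gene pairs set beside them are no test, because the 6 were chosen with earlier results of these data in view. Of 15 pairs, 13 were above 0 and the median Pearson r was 0.32, whereas 51.3% of all gene pairs were above 0 and their median was 0.0115. In 5 of 15 pairs r was at least 0.5, against 8.44% of all pairs. These were FOSL2 with NR4A1 (0.74), FOS with NR4A1 (0.71), FOS with FOSL2 (0.57), FOS with JUND (0.54) and JUND with NR4A1 (0.53). Over the 10 arrays of male animals the same pairs had 0.56, 0.45, 0.27, 0.29 and 0.26, so only the first stayed above 0.5. Of all genes, 0.913% had as high a correlation with FOSL2 as NR4A1 had, and 2.65% as high a one with NR4A1 as FOSL2 had. For FOS and NR4A1 these shares were 1.28% with FOS and 3.84% with NR4A1.

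JUNB and KLF4 stood outside this group over the 12 arrays, and less so over the 10 arrays of male animals. There JUNB had r of 0.46 with NR4A1, 0.36 with FOSL2, 0.26 with KLF4, 0.20 with JUND and -0.25 with FOS. Over all 12 arrays the values were as follows. JUNB had r of -0.22 with FOS, 0.13 with JUND, 0.25 with FOSL2, 0.32 with NR4A1 and 0.39 with KLF4. KLF4 had r between -0.11 and 0.28 with FOS, FOSL2, JUND and NR4A1. KLF4 was the gene that depended most on the choice of arrays: over the 10 arrays of male animals its r was 0.89 with NR4A1 and 0.69 with FOS, against 0.28 and 0.14 over all 12. On SII trained 2, FOS was at 1.12 and KLF4 at -1.70.

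Some of the shared variation lay between the groups and regions. After subtracting group means, the median r over the 15 pairs was 0.15 and 10 were above 0. FOS with NR4A1 then had 0.70 and JUND with NR4A1 0.15. Over the 6 SII arrays FOS with NR4A1 had an r of 0.91, and over the 6 IPS arrays 0.45. NR4A1 with KLF4 had 0.01 in SII and 0.91 in IPS, the latter with 334M at -1.45 and -1.85. JUND had 0.71 with NR4A1, 0.69 with FOSL2 and 0.73 with FOS in SII. In IPS the same pairs had -0.50, -0.18 and 0.44. Among male arrays 14 of 15 pairs were above 0, with a median of 0.29.

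**Figure D4:**
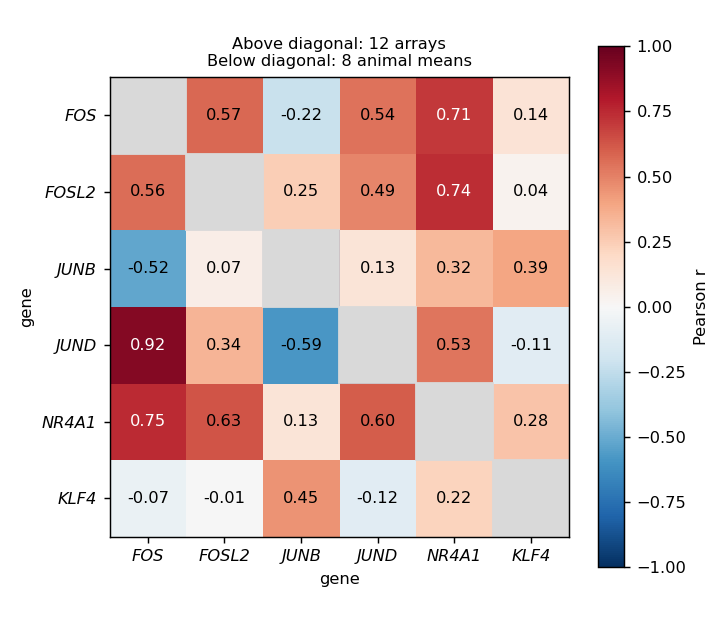
Pearson correlations between the 6 genes, over the 12 arrays (above the diagonal) and over the means of 8 animals after removing the region mean (below the diagonal); red is above 0 and blue below, as the colour bar shows. FOS, FOSL2, JUND and NR4A1 form the block of high values over the 12 arrays (r of 0.49 to 0.74). Over the 6 IPS arrays alone, not drawn, JUND was below 0 with FOSL2 (-0.18) and NR4A1 (-0.50). Over the 10 male arrays, also not drawn, the block had r of 0.24 to 0.56, and NR4A1 with KLF4 had 0.885. JUNB is below 0 with FOS on both sides.

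To have 1 value per animal, each array was set relative to its region mean and averaged per animal, giving 8 values. Those of 340F and 335F rest on 1 SII array, those of 343M and 358M on 1 IPS array, and the others on both regions. The permutations treat all 8 as exchangeable, although they differ in the number of arrays and in treatment, which limits the p-values. FOS was at -0.74 in 334M, -0.58 in 348M, 0.01 in 347M, 0.03 in 354M, 0.35 in 343M, 0.58 in 358M, 0.62 in 340F and 1.00 in 335F. JUND in the same order was at -0.28, -0.34, 0.05, 0.17, 0.17, 0.07, 0.18 and 0.38. The trained animals 334M and 348M were the lowest in both genes and the trained female 335F the highest. The low JUND value of each of these males came from 1 array, SII trained 1 for 334M (-0.44, with 0.03 in IPS) and IPS trained 3 for 348M (-1.10, with 0.58 in SII). Those are the 2 arrays with the highest GAPDH 3' minus 5' difference, 0.72 and 1.01, whose part in this correlation was not tested. The correlation was r = 0.92 (exact permutation p = 0.00238, n = 8, 2-sided, adjusted over the 15 pairs 0.0357), and Spearman's rho was 0.88 (exact permutation p = 0.00724, adjusted 0.109). Without the 2 animals farthest from the median FOS value r was 0.81. Over the 10 male arrays, not averaged by animal, r was 0.29. So the pair passed 5% by r and not by rho, and the genes were proposed with earlier results of these data in view.

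FOS with NR4A1 had r = 0.75 over the 8 animals (exact permutation p = 0.0302, adjusted 0.227) and rho = 0.76 (exact permutation p = 0.0368, adjusted 0.184), and r was 0.50 without the 2 farthest animals. FOSL2 with NR4A1 had r = 0.63 (exact permutation p = 0.0877, adjusted 0.375) and rho = 0.81 (exact permutation p = 0.0218, adjusted 0.163). No other pair had a p under 0.05 by r or by rho. KLF4 had r of -0.07 with FOS and 0.22 with NR4A1, for which p was 0.881 and 0.551 in the same exact permutation test.

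**Figure D5:**
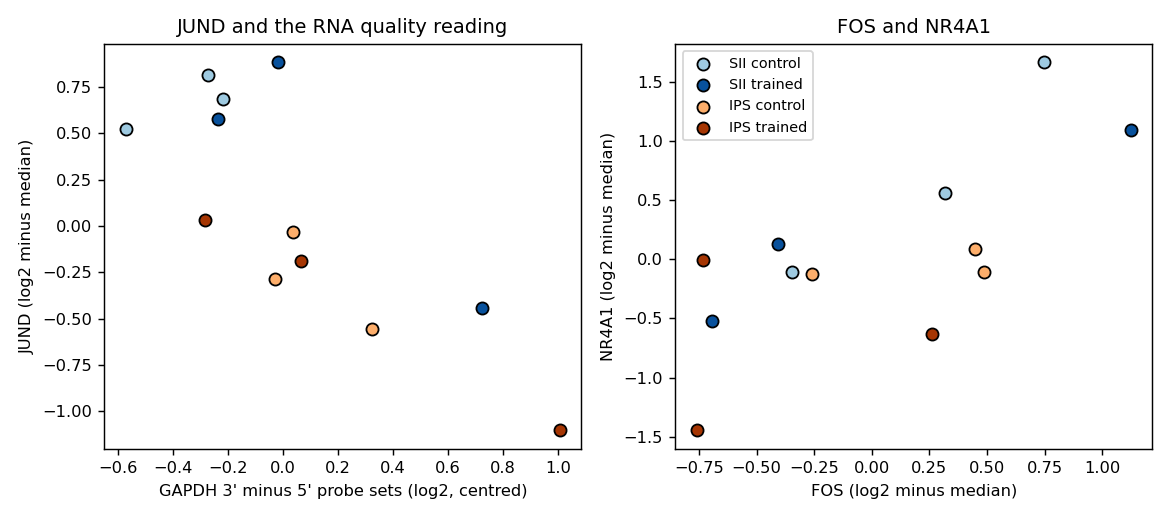
Left, JUND against the GAPDH 3' minus 5' difference (both log2, centred on the 12 arrays); right, NR4A1 against FOS (log2 minus the median); each point is 1 array, coloured by group. The arrays with GAPDH differences of 0.72 (SII) and 1.01 (IPS) have the lowest JUND value of their region (r = -0.81 over all arrays), and the arrays of the female animals have the highest FOS and NR4A1 values (r = 0.71 over all arrays).

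The genes whose pattern over the 12 arrays was most like each member were taken from 6011 genes with at least 2 probe sets, the first 3 by Pearson r. They were CDIP1 (0.88), REPIN1 and C19H19orf25 (both 0.87) for FOS. For FOSL2 they were AHI1 (0.93), MED16 (0.88) and ANKRD22 (0.86), and for JUNB TPP1 (0.82), NRP1 and MYOM3 (both 0.78). JUND was most like GBA2 (0.95), XPNPEP1 (0.93) and GZMA (0.92). NR4A1 was most like MICAL2 (0.93), PLXNB2 (0.92) and HPCAL1 (0.91). KLF4 was most like CTSK (0.87), FGD6 (0.84) and SERTAD4 (0.83), and the mean of the 6 scaled genes like RPTOR (0.90), GRK2 (0.88) and HPCAL1 (0.87). Genes with 1 probe set, among them ARC, EGR4 and NPAS4, were not searched.

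Of other AP-1 members and dimer partners, 10 of 17 listed genes were measured, and 0 passed in either region. The signs were 7 above 0 and 3 below in SII and again in IPS, with medians of 0.09 and 0.07. FOSB, FOSL1 and JUN had no probe set with a single symbol and were not analysed here. ATF3, a stress-induced AP-1 partner, had changes of 0.09 ± 0.36 in SII and -0.20 ± 0.36 in IPS. The small Maf proteins lack a transactivation domain. MAFK had 0.64 ± 0.39 and MAFG 0.26 ± 0.17 in SII, and MAFF had -0.83 ± 0.44 in IPS, where BATF had 0.48 ± 0.36.

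Among other immediate early transcription factors, 12 of 16 were measured and 0 passed in either region. In SII 7 were above 0 and 5 below (median 0.03), and in IPS 3 and 9 (median -0.17). NR4A3, EGR1 and EGR3 were not analysed here, for the same reason as JUN. NR4A2, a relative of NR4A1 read by 5 probe sets, had -0.03 ± 0.32 in SII and 0.04 ± 0.32 in IPS. EGR2 had 0.19 ± 0.28 and -0.22 ± 0.28, and EGR4 0.02 ± 0.38 and 0.10 ± 0.38. NPAS4, a neuron-specific factor induced by calcium entry, had 0.15 ± 1.84 and -0.23 ± 1.84, an error too wide to read. IER5 had 0.32 ± 0.34 in SII and -0.37 ± 0.34 in IPS, NFIL3 -0.16 ± 0.20 in SII and CSRNP1 -0.18 ± 0.21 in IPS.

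Of the KLF family, 11 of 13 further members were measured and 0 passed in either region, with medians of -0.01 in SII and 0.06 in IPS. In SII 5 were above 0 and 6 below, and in IPS 6 and 5. KLF2, the family member closest to KLF4 in its endothelial role, had -0.32 ± 0.23 in SII and -0.47 ± 0.23 in IPS (limma, unadjusted p = 0.199 and 0.0655). KLF12, read by 7 probe sets, had -0.47 ± 0.20 in SII (unadjusted p = 0.0409, adjusted p = 1). KLF6 had 0.03 ± 0.26 and 0.06 ± 0.26, and KLF7 0.28 ± 0.16 in IPS.

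Immediate early effectors act outside the nucleus or on signalling and RNA. Of these, 21 of 26 were measured and 0 passed, with 9 above 0 and 12 below in SII and 10 and 11 in IPS (medians -0.08 and -0.03). ARC, which acts on AMPA receptor endocytosis at synapses, had -0.08 ± 0.58 and 0.30 ± 0.58. HOMER1, a postsynaptic scaffold protein, had 0.08 ± 0.21 and 0.00 ± 0.21. DUSP1, a phosphatase that switches off MAP kinases, had 0.47 ± 0.54 and -0.52 ± 0.54, and its relative DUSP5 0.37 ± 0.26 and -0.34 ± 0.26. PIM1 had -0.32 ± 0.21 in SII and TRIB1 0.68 ± 0.34 in IPS.

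The later response genes, which encode secreted and neurite proteins, had 7 of 10 measured and 0 that passed. They were above 0 in 7 of 7 in SII (median 0.06), where 54.5% of all genes were, and in 4 of 7 in IPS (median 0.10). BDNF, a neurotrophin, had 0.38 ± 0.41 in SII and -0.30 ± 0.41 in IPS. NPTX2, a pentraxin that clusters AMPA receptors, had 0.40 ± 0.39 and 0.33 ± 0.39. VGF had 0.21 ± 0.20 in SII, and NRN1 0.22 ± 0.17 and STMN2 0.18 ± 0.21 in IPS.

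Upstream kinases and factors numbered 22 of 28 measured, of which 0 passed, with 11 above 0 and 11 below in each region (medians -0.04 and -0.01). CREB1, the factor at the FOS promoter, had -0.15 ± 0.32 and -0.04 ± 0.32, and SRF was not analysed here. CRTC1, a coactivator of CREB, had 0.65 ± 0.29 in IPS (limma, unadjusted p = 0.0452, adjusted p = 1) and 0.02 ± 0.29 in SII. Of the SRF partners, ELK4 had -0.67 ± 0.37 in SII and -0.43 ± 0.37 in IPS. ELK3 went in opposite directions, with 0.46 ± 0.32 in SII and -0.60 ± 0.32 in IPS. MEF2A, a calcium-regulated factor, had -0.24 ± 0.16 in SII.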

How the data were processed

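The authors deposited log2 values for each probe set, centred to a median of 0 across the 12 arrays. The log base is not stated and was read from the values' range. Per the submitters' processing notes the tool was MAS5, with no version named. How arrays were scaled was not given in the sources used here. The number of arrays limits the precision. Of 52865 probe sets, 99 controls were left out. A single symbol was given to 24956, several to 361 and none to 27449, and probe sets of a gene were averaged.

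limma 3.58.1 (R 4.3.3) was fitted to all 12 arrays with 4 group means, a common correlation between arrays of an animal (0.0474 for probe sets, 0.0862 for genes) and empirical Bayes moderation, 2-sided, with Benjamini-Hochberg adjustment over all probe sets or genes. An exact permutation of 3 arrays against 3 cannot give p below 0.1. The model was tested on simulated data. Correlations over animals used exact permutations. The labels do not say whether the animals were treated at the same time.

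The members and the gene lists were chosen with earlier results of these data known, so counts of signs among them are no test. Named genes were all members, 20 listed early response genes where measured, the 2 genes of each list with the smallest p in SII and in IPS, and the 3 genes most like each member. Alternatives covered normalization, the animal correlation, a replicate block, sex, array weights, regions fitted alone, probe set averaging and each array left out. The fit without the 3 arrays with raised hybridisation controls was chosen after seeing the data. Correlations of deviations between arrays with the same replicate number were -0.199 to 0.0606 over 18 pairs. Over the 4 pairs of arrays from the same animal they were -0.0905 to 0.0561. Known pairs thus did not stand out, so the check cannot tell whether replicate numbers pair the samples. The trained animals 334M and 348M have the same replicate number in both regions.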

Additional observations from a re-analysis of the deposited data

How the results depend on the processing

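Over 672 alternative values of the member changes none passed 5%, the lowest adjusted p being 0.218 (JUND, IPS against SII), and 48 changed sign. Some of these settings could hardly move a value, so the counts overstate stability. With 1 or 2 probe sets a member's median equals its mean, and only FOSL2 had a floor probe set. An array left out of the other region bears little on a training change. Training changes of FOS, FOSL2, NR4A1 and KLF4 in IPS and of FOSL2 and KLF4 in SII kept their sign in all settings run.

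Without the arrays with raised hybridisation controls these changed sign: FOS in the difference of training changes (0.046) and between regions (0.24), JUNB in IPS (-0.14) and in the difference (-0.12), JUND in IPS (0.27), and KLF4 in the difference (-0.72) and between regions (-0.38). With sex as a covariate the regional values were 0.17 for FOS and -0.20 for KLF4, and with male animals only 0.18 and -0.20, with -0.36 for the KLF4 difference and 0.0031 for the JUNB average. Array weights gave 0.12 for FOS between regions, 0.0091, -0.059 and -0.069 for JUNB in SII, in IPS and in the difference, and -0.39 for the KLF4 difference. Without floor probe sets the FOSL2 difference was 0.066.

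With 1 array left out, FOS ran from -0.77 to 0.12 in SII, -0.76 to 0.13 in the difference and -0.40 to 0.056 between regions. The FOSL2 difference ran from -0.27 to 0.0066. JUNB ran from -0.16 to 0.24 in IPS and -0.20 to 0.019 on average. JUND ran from -0.60 to 0.038 in SII, -0.36 to 0.35 in IPS and -0.17 to 0.71 in the difference. NR4A1 ran from -0.90 to 0.0083 in SII and -0.63 to 0.24 in the difference, and KLF4 from -0.38 to 0.75 in the difference and -0.19 to 0.38 between regions. The cause of these shifts was not tested.

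Genes past 5% between regions, 3 as reported, numbered 1 under quantile normalization, the replicate block, male animals only and without floor probe sets, and 0 without the animal correlation, with sex as a covariate and without the arrays with raised controls. Leaving out 1 array gave 0 to 9. In SII, 2 genes passed under quantile normalization and 0 to 4 with 1 array left out, and in IPS 0 to 1. Probe sets past 5%, 0 as reported, were 1 in SII under quantile normalization, 2 with sex and 2 with array weights, 5 between regions under quantile normalization and 2 with sex, and 1 in the difference without the arrays with raised controls. With 1 array left out they ran from 0 to 3 in SII, 0 to 2 in IPS, 0 to 2 in the difference, 0 to 3 on average and 0 to 14 between regions. Under the replicate block the regional difference of JUND was -0.87, and the block moved no member past 5%.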

Other observations

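Between the regions, averaged over training, some listed relatives of the 6 genes had a lower adjusted p than any member (JUND, 0.37). IPS minus SII was -0.94 ± 0.25 for BATF, 0.52 ± 0.13 for NFIL3, 0.72 ± 0.14 for KLF12 and -0.70 ± 0.20 for CRTC1, with adjusted p of 0.316, 0.3, 0.227 and 0.337 in limma over all genes, so none passed. KLF2 had 0.38 ± 0.16 and KLF7 -0.25 ± 0.11. Between regions 10.7% of all genes had an unadjusted p under 0.05 (605 higher in IPS and 901 lower of 14132). In the KLF family it was 2 of 11 higher and 1 lower, among upstream genes 1 of 22 higher and 4 lower, and among AP-1 partners 0 of 10 higher and 1 lower. Among other immediate early transcription factors it was 2 of 12 higher and 0 lower, among effectors 1 of 21 higher and 1 lower, and among later response genes 0 of 7. Of the microglial markers, 1 of 9 was higher in IPS, against 46.8% of all genes, and the median was -0.39 against -0.0245. Of these markers 3 had an unadjusted p under 0.05, all lower in IPS, and 0 passed 5%.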
